A study of Mus musculus with 8 samples.

Results

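The thrombospondin genes Thbs1, Thbs2, Thbs3 and Thbs4 and the receptor gene Cd47 were examined in mouse retina. They are 5 genes of the 16109 in the count table, and all 5 were present and passed the filter on low counts, as did 15850 genes in all. The set was chosen by gene symbol, as angiostatic matrix proteins and a receptor, when the higher Thbs1 level under one of the labels was already known from these libraries. The difference between the labels is therefore described for the 5 genes, with its standard error, and no p-value is given for it.

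The series holds 8 libraries of poly(A) RNA from retinas of C57BL/6 mice at postnatal day 5, 4 with a wild type (WT) label and 4 with a C3 KO label, which the series describes as deficient in the complement gene C3. No treatment or other allele is named for either group, and the hyaloid vessels of the embryo had been removed at dissection. The labels do not say how the C3 allele was made or how many animals went into a library, so the spread between libraries may be partly technical. Because whole retinas were sampled, fewer cells of a type and less RNA per cell cannot be told apart.

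C3 itself went against the labels. It stood between 1.75 and 3.32 CPM (reads of a gene relative to the library total, scaled by TMM) in the WT-labelled libraries and between 80.6 and 87.5 CPM in the C3 KO-labelled ones. Each direction below is that of the C3 KO-labelled libraries relative to those labelled WT and rests on labels that the C3 reads contradict. Total counts ran from 16503564 to 19608824 reads. Sex-linked RNA also moved with the labels. Xist, the non-coding RNA that silences an X chromosome, was between 1.48 and 2.65 CPM in the C3 KO-labelled libraries and between 295 and 2441 CPM in the WT-labelled ones. The sum over 4 Y-linked genes was 299 to 353 CPM in the C3 KO-labelled libraries. The library labelled WT replicate 3 stood apart, with 303 CPM summed over these genes against 1.79 to 20.2 CPM in the other WT-labelled libraries. Its Xist was the 295 CPM given above, so it held both Xist and Y-linked RNA. In the other 7 libraries sex-linked expression followed the label, so that library alone separates label from sex-linked expression. The parts of the label and of sex-linked expression in the results were not tested beyond the fit with Y-linked expression as a covariate. Among the retinal neuron and progenitor markers examined, 13 of 14 were in the table, at a summed 5669 to 6604 CPM per library.

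Thrombospondins are secreted, calcium-binding glycoproteins of the extracellular matrix. Thbs1 and Thbs2 carry the type 1 repeats through which these proteins bind CD36 on endothelial cells and restrain the growth of vessels, while Thbs3 and Thbs4 lack those repeats. All members share the calcium-binding type 3 repeats and a C-terminal globular domain, the part of thrombospondin-1 that binds CD47. CD47 is a widely expressed membrane protein that also presents a "do not engulf" signal to phagocytes through SIRPα. In the eye, thrombospondin-1 is known as a product of the pigment epithelium and of vascular cells, and it can activate latent TGF-beta.

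Because the genes are paralogs, it matters for the counts how alike their transcripts are. In the longest protein-coding transcript of each gene in GENCODE release M21 (mouse build GRCm38), the coding sequences of Thbs1 and Thbs2 matched at 67.0% of aligned bases and those of Thbs3 and Thbs4 at 66.9%, against 60.5% to 60.9% for the other pairs. The longest run of identical bases shared by any pair of the transcripts of Thbs1 to Thbs4 was 26 bases, between Thbs1 and Thbs2. The 60 bases of Thbs1 around that run are printed here with their best ungapped match in the other coding sequences, since they hold the longest run that any of these paralogs share. Capitals mark bases that differ from Thbs1, and positions are counted from the A of the start codon.

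Thbs1, coding bases 2296 to 2355: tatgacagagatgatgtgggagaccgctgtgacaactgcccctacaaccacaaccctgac

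Thbs2, coding bases 2299 to 2358: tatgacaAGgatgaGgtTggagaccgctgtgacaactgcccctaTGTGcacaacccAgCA

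Thbs3, coding bases 1588 to 1647: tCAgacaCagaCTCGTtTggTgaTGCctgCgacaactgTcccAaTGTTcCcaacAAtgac

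Thbs4, coding bases 1783 to 1842: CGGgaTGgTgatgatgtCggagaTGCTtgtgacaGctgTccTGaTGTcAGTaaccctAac

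In this stretch Thbs2 differed from Thbs1 at 11 of 60 bases, Thbs3 at 23 and Thbs4 at 22. The read length and the treatment of reads that fit several genes are not given in the sources used here. In that annotation Thbs1 lies on chromosome 2, Thbs2 on 17, Thbs3 on 3, Thbs4 on 13 and Cd47 on 16. Exons of Thbs3 share 318 bases with the oppositely oriented gene Mtx1, and exons of Thbs1 share 208 bases with the oppositely oriented non-coding gene Gm29233. The library kit was directional, but no source used here says if reads were counted by strand.

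Thbs1 was the member with a large difference between the labels. Its CPM was 21.3, 15.5, 14.4 and 12.6 in WT-labelled replicates 1 to 4, from 416, 266, 271 and 209 reads. In C3 KO-labelled replicates 1 to 4 it was 36.2, 45.6, 41.5 and 41.0 CPM, from 710, 876, 735 and 721 reads. The labels did not overlap, and the lowest library labelled C3 KO stood well above the highest labelled WT, which was replicate 1. The mean was 15.95 ± 3.77 CPM (SD, n = 4) with the WT label and 41.0 ± 3.87 CPM (SD, n = 4) with the C3 KO label. That is a log2 fold change of 1.36 ± 0.13 (SE), or 2.56-fold, which ranked 68 by size among the 15850 genes tested. Thbs1 was chosen with this difference known, so nothing is read from the rank.

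The spread of Thbs1 among libraries of one label was wider than counting alone gives. Its coefficient of variation was 23.6% with the WT label, where the read number alone would give 5.87%, and 9.42% with the C3 KO label, where it would give 3.63%. Under the WT label, replicate 1 was the high library, and without it the log2 fold change was 1.53. Over the fits that each left out 1 library the value ran from 1.26 to 1.53, with 1.30 when the library labelled WT replicate 3 was left out.

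Thbs2, the closest relative of Thbs1 and like it an inhibitor of vessel growth, was scarce. WT-labelled replicates 1 to 4 held 25, 19, 48 and 25 reads, or 1.28, 1.11, 2.55 and 1.51 CPM. Those labelled C3 KO held 32, 43, 41 and 32 reads, or 1.63, 2.24, 2.31 and 1.82 CPM. The labels overlapped because WT replicate 3 was the highest of all 8 libraries. The means were 1.61 ± 0.648 and 1.9996 ± 0.329 CPM (SD, n = 4), and the log2 fold change was 0.30 ± 0.28 (SE). Without WT-labelled replicate 3 it was 0.61, and with Y-linked expression as a covariate it was −0.23. Around the value from all libraries, 1.96 SE on either side spans −0.25 to 0.86. The coefficient of variation of Thbs2 was 40.2% with the WT label, where the read number alone would give 18.5%, and 15.5% when replicate 3 was left out.

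Thbs3, a member without type 1 repeats that is best known from growing bone, stood slightly higher in every C3 KO-labelled library. It stood at 7.64, 5.47, 7.12 and 6.9997 CPM in WT-labelled replicates 1 to 4, and at 7.99, 9.11, 8.63 and 9.32 CPM in the C3 KO-labelled ones. All C3 KO-labelled libraries were above all labelled WT, with a narrow gap between C3 KO replicate 1 and WT replicate 1. The means were 6.81 ± 0.932 and 8.76 ± 0.588 CPM (SD, n = 4), and the log2 fold change was 0.36 ± 0.13 (SE). Without WT-labelled replicate 1 it was 0.42. Mtx1, the mitochondrial import gene whose exons overlap Thbs3, stood at 23.9 ± 1.87 CPM with the WT label and 25.0 ± 1.59 CPM with the C3 KO label (SD, n = 4), with overlapping labels and a log2 fold change of 0.07 ± 0.08 (SE).

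Thbs4, which is expressed in muscle, tendon and nervous tissue and by reactive astrocytes, was also scarce. It stood at 2.36, 1.34, 1.97 and 1.81 CPM in WT-labelled replicates 1 to 4, from 46, 23, 37 and 30 reads. Those labelled C3 KO gave 2.55, 1.67, 2.82 and 2.27 CPM, from 50, 32, 50 and 40 reads. The labels overlapped, with replicate 2 the lowest under either label. The log2 fold change was 0.31 ± 0.25 (SE). The coefficient of variation was 22.6% and 21.2% under the labels, where read numbers alone would give 17.1% and 15.2%.

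Cd47, the receptor, was nearly the same under both labels. It stood at 66.9, 66.6, 63.8 and 59.4 CPM in WT-labelled replicates 1 to 4 and at 66.4, 59.96, 66.3 and 64.7 CPM in the C3 KO-labelled ones. The ranges lay almost on top of each other. The means were 64.2 ± 3.46 and 64.4 ± 3.03 CPM (SD, n = 4), and the log2 fold change was 0.00 ± 0.06 (SE), and 1.96 SE on either side spans −0.11 to 0.12. Of the 5 genes, 1 met the adjusted threshold (edgeR, Benjamini-Hochberg over all genes), namely Thbs1. Over all tested genes 14.3% were called, 8.33% higher and 5.98% lower. In 2 of the 5, Thbs1 and Thbs3, every library labelled C3 KO was above every library labelled WT, which held for 9.65% of all tested genes. The set was put together with this comparison known, so nothing is read from these counts.

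**Figure D1:**
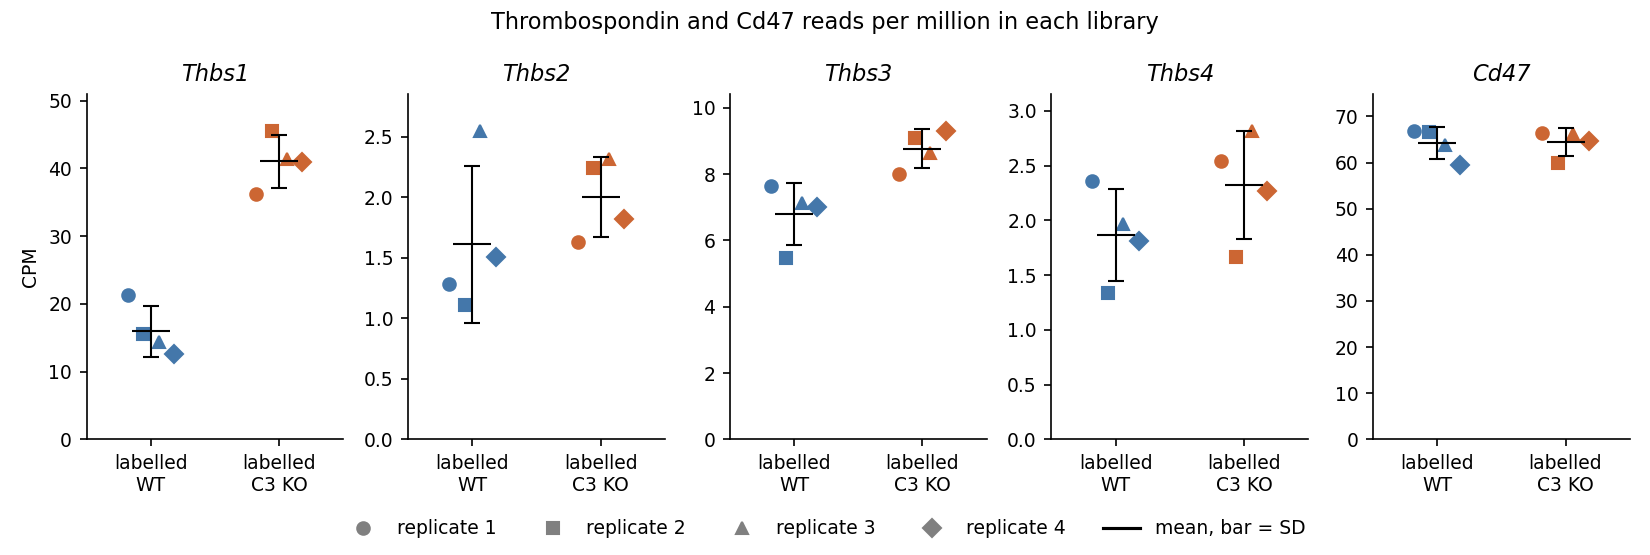
CPM of each member (y axes from 0, scaled separately) in the 8 libraries, grouped by label on the x axis, with replicate numbers as symbols, the mean as a dash and the SD as a bar. Thbs1 runs from 12.6 to 21.3 CPM with the WT label and from 36.2 to 45.6 CPM with the C3 KO label, Thbs3 is separated by a narrow gap, and the labels overlap in Thbs2, Thbs4 and Cd47.

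Levels can be compared between genes only per transcript length, for which the RPKM values of the authors (reads relative to transcript length and library total) were used. Cd47 was the most abundant, at 12.2 ± 0.614 RPKM with the WT label and 12.2 ± 0.528 RPKM with the C3 KO label (SD, n = 4). Thbs1 followed, at 2.65 ± 0.614 and 6.75 ± 0.649 RPKM, then Thbs3, at 1.44 ± 0.195 and 1.83 ± 0.122 RPKM. Thbs4 stood at 0.603 ± 0.128 and 0.738 ± 0.147 RPKM, and Thbs2 was the lowest, at 0.291 ± 0.110 and 0.355 ± 0.0553 RPKM. This order held in 8 of 8 libraries for each pair of genes. Only Thbs4 and Thbs2, the lowest neighbours, had ranges over the 8 libraries that overlapped, at 0.440 to 0.883 and 0.205 to 0.451 RPKM.

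**Figure D2:**
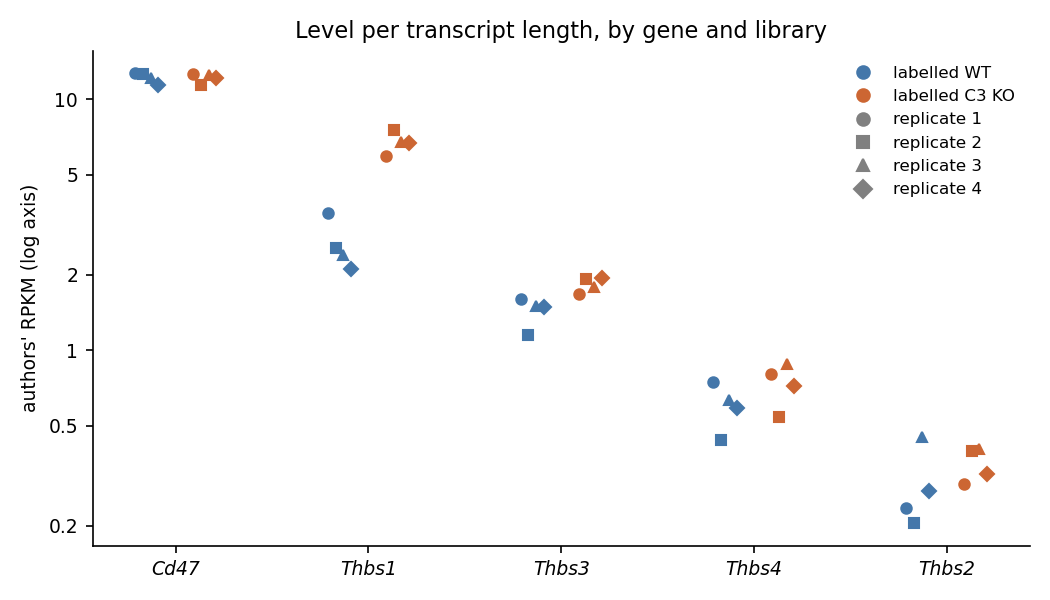
RPKM of the authors (log axis) for the members, ordered by mean level on the x axis, with colours for the label and symbols for the replicate. Cd47 lies between 11.4 and 12.7 RPKM in every library and Thbs1 between 2.11 and 7.55, and the points of Thbs4 and Thbs2 overlap in range.

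The make-up of the summed transcripts of Thbs1 to Thbs4 is given as a description, since it rests on Thbs1. Thbs1 made up 57.7%, 58.8%, 48.1% and 47.3% of the summed RPKM of Thbs1 to Thbs4 in WT-labelled replicates 1 to 4. It made up 68.2%, 72.6%, 68.7% and 69.2% in the C3 KO-labelled ones. The shares did not overlap, and with the C3 KO label they lay close together. The summed RPKM was 4.99 ± 0.805 with the WT label and 9.68 ± 0.695 with the C3 KO label (SD, n = 4). The share of Thbs3, the second most abundant of them, was 29.1% ± 3.36 and 19.0% ± 0.822 (SD, n = 4), although its own level was not lower with the C3 KO label. Relative to its ligand, Cd47 stood at 3.6004 to 5.39 times the RPKM of Thbs1 with the WT label and at 1.51 to 2.11 times with the C3 KO label.

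**Figure D3:**
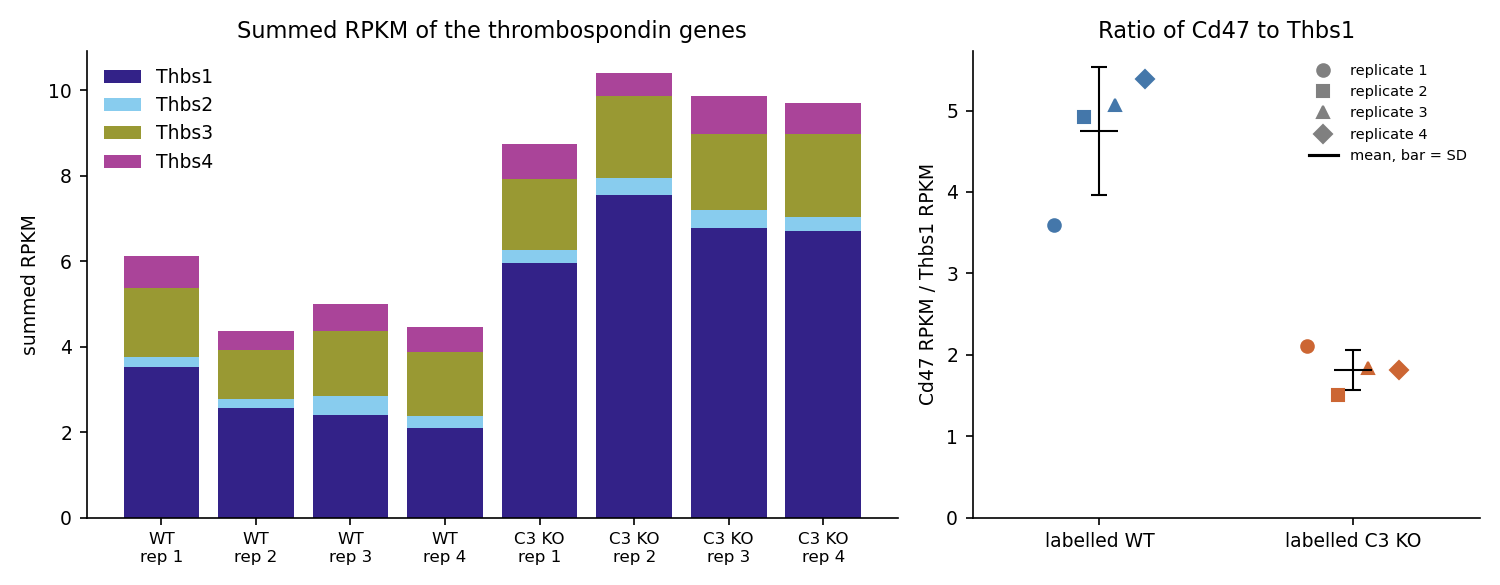
Left, RPKM of Thbs1 to Thbs4 stacked for each library (y axis from 0), with Thbs1 at the base. Right, the ratio of Cd47 RPKM to Thbs1 RPKM by label, with the mean and SD, which runs from 3.6004 to 5.39 in the WT-labelled libraries and from 1.51 to 2.11 in the C3 KO-labelled ones.

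By profile over the 8 libraries, the genes most like Thbs1 were 2 pigment cell genes and a secreted protein of the carboxypeptidase family. Likeness was measured as the root mean square difference of log2 CPM, each gene centred on its own mean, among 15014 genes of at least 1 CPM. Pmel, the amyloid scaffold of the melanosome, was nearest at 0.10, followed by Cpxm2 at 0.12 and Rgr, a retinal G protein-coupled receptor found in pigment epithelium, at 0.13. The median over all compared genes was 0.73. The difference between the labels is part of these profiles, so genes near Thbs1 share the difference for which it was chosen. Pmel stood at 36.9 CPM on average with the WT label and 90.0 CPM with the C3 KO label, and Rgr at 12.7 and 28.6 CPM. Near Cd47 were Chuk, Slc35c2 and Pts, at 0.02 to 0.03, where the median was 0.14. For Thbs3 the nearest were B3gnt5, Tmem145 and Unc13c, at 0.05 to 0.06, and for Thbs4 they were Spry1, Igsf9b and Tert, at 0.08 to 0.10. The nearest to Thbs2 were Pi16, 0610009E02Rik and 2810429I04Rik, at 0.13 to 0.18.

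Markers of other cell types were compared beside Thbs1. All 16 pigment epithelium and melanocyte markers were in the table and none was at 0 on average. In the C3 KO-labelled libraries 11 were called, each of them higher, which is 68.8% against 14.3% of all genes. The summed level of all 16 was 320 to 351 CPM with the WT label and 451 to 478 CPM with the C3 KO label. Rlbp1, which is also a Mueller glia gene and the most abundant of the list, averaged 206 and 175 CPM, and without it the sum was 103 to 157 and 283 to 309 CPM, or 2.32-fold between the means. Rpe65, which defines the pigment epithelium, averaged 1.17 CPM with the WT label and 2.02 CPM with the C3 KO label. It was not called (log2 fold change 0.77, edgeR adjusted p = 0.111). The part of the pigment markers in the Thbs1 difference was not tested.

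Of 12 fibroblast and sclera markers 8 were in the table, with summed levels of 12.7 to 14.3 CPM with the WT label and 18.3 to 25.4 CPM with the C3 KO label. Astrocyte markers, 6 of 6 listed, summed to 205 to 264 and 268 to 343 CPM, and microglia markers, 10 of 10, to 126 to 167.9 and 168.4 to 206 CPM. None of these ranges overlapped between the labels. Called were 50% of the fibroblast, 33.3% of the astrocyte and 20% of the microglia markers, each higher, against 14.3% of all genes. The astrocyte sum was mostly Pdgfra, at 161 and 214 CPM on average, and Gfap, at 46.1 and 68.9 CPM, the 2 that were called. Aldh1l1 and Aqp4 had negative log2 fold changes (−0.41 and −0.32), and 4 of 6 were positive. The part of these 3 cell types in the Thbs1 difference was not tested. Endothelial markers (11 of 11, at 365 to 419 and 336 to 403 CPM) and pericyte and smooth muscle markers (10 of 10, at 167 to 228 and 173 to 226 CPM) overlapped, as did Mueller glia markers (7 of 7, at 1152 to 1450 and 1146 to 1189 CPM). Kdr, a VEGF receptor, averaged 260 and 232 CPM of the endothelial sum, and without it, an alternative chosen after seeing the data, the sums were 108 to 136 and 114 to 149 CPM. Of the endothelial markers 8 of 11 had a positive log2 fold change, against 50.9% of all tested genes. Only Tek, the angiopoietin receptor, was called, and it was higher (log2 fold change 0.50, edgeR adjusted p = 0.0151). That is 9.09% of the endothelial list called, against 14.3% of all genes. Of the Mueller glia markers 28.6% were called, 1 higher and 1 lower, and no pericyte or smooth muscle marker was called. Platelets store thrombospondin-1, and of 8 platelet and megakaryocyte markers only Itga2b and Gp1bb were among the rows analysed here, at a summed 12.7 to 17.99 CPM and 17.7 to 20.1 CPM. Red blood cell markers, 5 of 6 listed, summed to 28.5 to 51.2 and 18.1 to 23.2 CPM, the opposite direction to Thbs1. All 5 were called lower, against 5.98% of all genes.

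**Figure D4:**
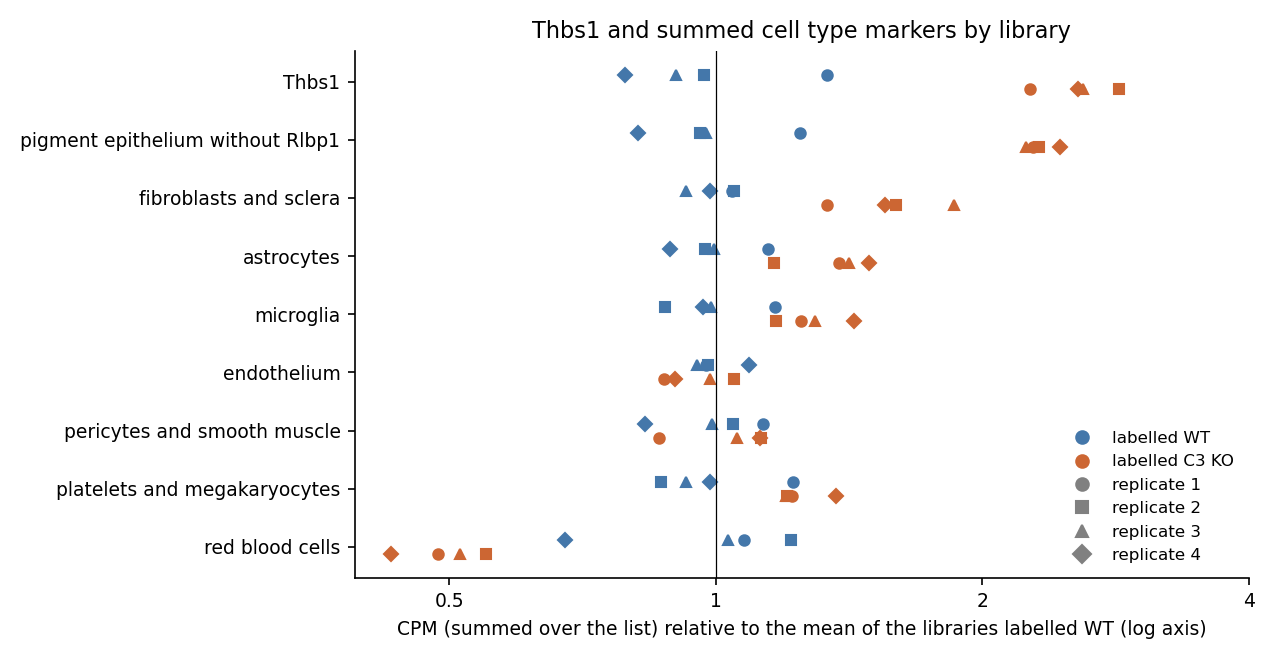
CPM of Thbs1 and summed CPM of each marker list, divided by the mean of the WT-labelled libraries (log axis), with one symbol per library. Thbs1 and the pigment epithelium list without Rlbp1 both sit to the right in all 4 C3 KO-labelled libraries, fibroblast, astrocyte and microglia lists do so by less, endothelial, pericyte and platelet lists overlap, and red blood cell genes sit to the left.

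Of 24 receptors and partners of thrombospondins and CD47, all tested, 3 were higher and 3 lower in the C3 KO-labelled libraries, so 25% were called against 14.3% of all genes, and the median log2 fold change was −0.01 against 0.00 over all genes. Sirpa, the phagocyte and neuronal receptor that CD47 engages, fell from 151 ± 7.86 to 130 ± 4.54 CPM (SD, n = 4, log2 fold change −0.22, edgeR adjusted p = 0.00404). Its lowest library labelled WT, at 145 CPM, was above the highest labelled C3 KO, at 135 CPM. Prkg1, the cGMP-dependent kinase downstream of nitric oxide, a pathway that CD47 restrains, fell from 14.97 ± 1.37 to 10.6 ± 0.816 CPM (SD, n = 4, log2 fold change −0.50, edgeR adjusted p = 0.0031). Lrp1, an endocytic receptor that clears thrombospondins, rose 1.18-fold (edgeR adjusted p = 0.0214), and the heparan sulfate proteoglycan Sdc4 was 1.20-fold lower (edgeR adjusted p = 0.0303). Cd36, the receptor of the type 1 repeats, averaged 1.46 CPM with the WT label and 2.11 CPM with the C3 KO label and was not called.

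Among the receptors, the calls of Sirpa, Prkg1, Lrp1 and Sdc4 were all lost with Y-linked expression as a covariate, at edgeR adjusted p = 0.149, 0.0643, 0.204 and 0.432. Their log2 fold changes in that fit were −0.21, −0.56, 0.25 and −0.20, against −0.22, −0.50, 0.23 and −0.27 without the covariate. The calls of Lrp1 and Sdc4 were also lost in 4 of the 8 fits without 1 library, with adjusted p up to 0.0806 and 0.082. Lrp1 lost its call on both RPKM scales as well. The count on the list was 3 without WT-labelled replicate 2 or 4 or C3 KO replicate 1, 3 or 4, and 4 without WT replicate 3. None of the calls was in the higher direction without WT replicate 2 or C3 KO replicate 3 or 4 or on the RPKM scale, where 3 were lower each time, and with the Y-linked covariate 1 was higher and none lower.

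Of 32 other genes encoding proteins with type 1 repeats, 30 were tested, 2 were higher and 1 was lower in the C3 KO-labelled libraries, so 10% were called against 14.3% of all genes, and the median log2 fold change was 0.12. Adamts10, a secreted metalloprotease of microfibrils, rose from 19.9 ± 1.16 to 31.2 ± 3.55 CPM (SD, n = 4, log2 fold change 0.65, edgeR adjusted p = 3.3e-05). Bai3, an adhesion receptor of synapses, rose 1.17-fold (edgeR adjusted p = 0.0103), and Spon2, a matrix protein of the spondin family, was 1.32-fold lower (edgeR adjusted p = 0.0347). The call of Spon2 was lost in 5 of the 8 fits without 1 library, among them that without WT replicate 3, with adjusted p up to 0.108. With the Y-linked covariate both Bai3 and Spon2 lost their calls (edgeR adjusted p = 0.128 and 0.0827). Their log2 fold changes in that fit were 0.25 and −0.58, against 0.22 and −0.40 without the covariate. Bai3 lost its call on both RPKM scales as well (limma adjusted p = 0.0953 and 0.0939). The count was 5 without WT-labelled replicate 1 or C3 KO replicate 1, and 5 with the replicate number as a block.

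Other matricellular proteins and angiogenesis inhibitors were called in one direction. Of 22 listed, 18 were tested, 7 were higher and none lower, 38.9% called against 14.3% of all genes, with a median log2 fold change of 0.15. Col4a3, the collagen chain whose fragment tumstatin inhibits endothelial growth, rose from 4.01 ± 1.30 to 12.6 ± 2.60 CPM (SD, n = 4, log2 fold change 1.65, edgeR adjusted p = 2.5e-05). Timp3, a matrix-bound metalloprotease inhibitor made by the pigment epithelium, rose from 20.9 ± 1.34 to 33.4 ± 3.01 CPM (SD, n = 4, log2 fold change 0.67, edgeR adjusted p = 1.1e-05). Tnc, the matrix glycoprotein tenascin-C, rose 1.35-fold (edgeR adjusted p = 5.2e-05), and Fbln5, an elastic fibre protein, 1.63-fold (edgeR adjusted p = 0.00927). The pigment epithelium markers without Rlbp1 stood at 103 to 157 CPM with the WT label and 283 to 309 CPM with the C3 KO label, and their part was not tested. Fbln5 lost its call with the Y-linked covariate (edgeR adjusted p = 0.192), at a log2 fold change of 0.68 against 0.70 without it. The count on the list was 4 without WT-labelled replicate 3 or C3 KO replicate 3 or 4.

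Genes of latent TGF-beta activation and response, a process that thrombospondin-1 can start, were called only in the lower direction with all 8 libraries. Of 18 listed, 16 were tested, none was higher and 3 were lower, so 18.8% were called. Over all genes 14.3% were called in either direction and 5.98% were called lower. The median log2 fold change of the list was −0.03. Tgfb2, a TGF-beta ligand of neural tissue, fell from 65.6 ± 5.77 to 51.7 ± 2.99 CPM (SD, n = 4, log2 fold change −0.34, edgeR adjusted p = 0.00129). Skil, a feedback repressor of SMAD signalling, was 1.11-fold lower (edgeR adjusted p = 0.0311) and Itgb8, an integrin chain that activates latent TGF-beta, 1.15-fold lower (edgeR adjusted p = 0.0378). Skil and Itgb8 each lost the call in 5 of the 8 fits without 1 library, with adjusted p up to 0.0908 and 0.15. Both also lost it on the RPKM scales and with the Y-linked covariate (edgeR adjusted p = 0.203 and 0.415). With that covariate their log2 fold changes were −0.17 and −0.16, against −0.15 and −0.20 without it. The count was 1 without WT-labelled replicate 2 or 4 or C3 KO replicate 4, and 2 without WT replicate 3. Without WT replicate 1 it was 3, of which 1 was higher and 2 lower.

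**Figure D5:**
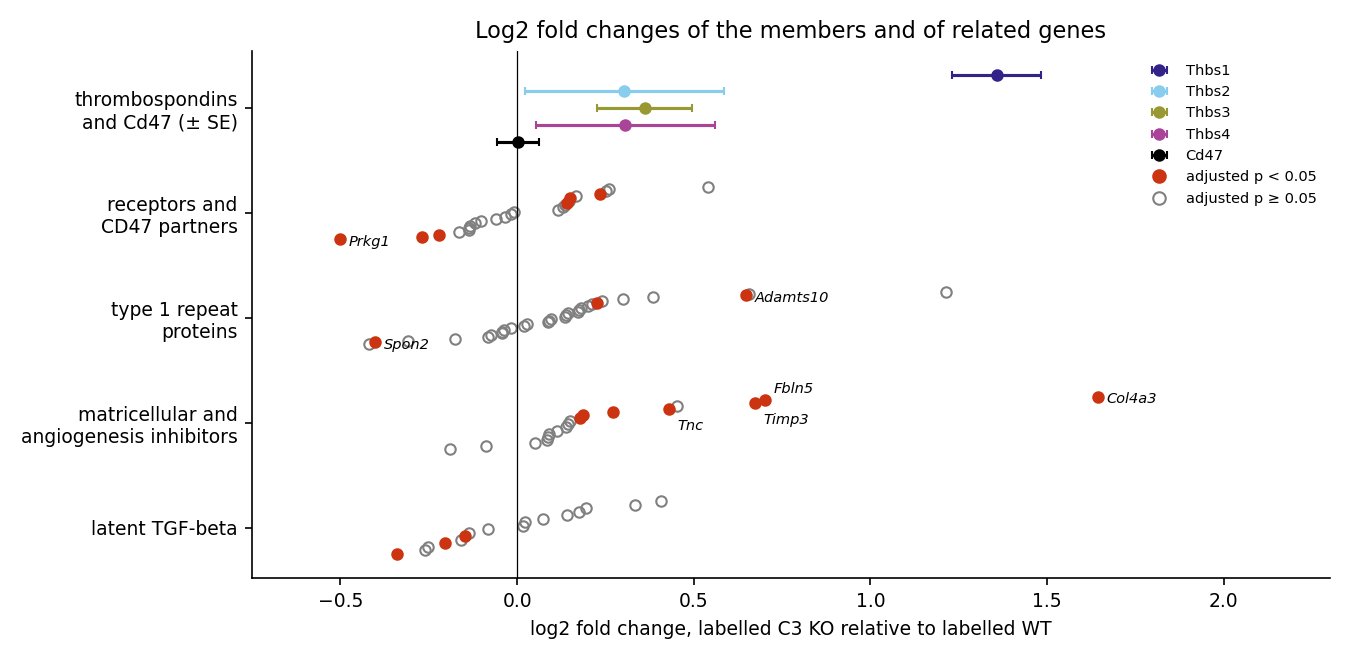
Log2 fold change of the C3 KO-labelled libraries relative to those labelled WT for the members (top, with SE) and for the genes of 4 related lists, filled where the edgeR adjusted p was below 0.05. Thbs1 stands at 1.36 and Cd47 at 0.00, called genes of the matricellular list all lie to the right and those of the TGF-beta list to the left.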

How the data were processed

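The authors deposited raw read counts for each gene, whole numbers that were not normalized. Per the submitters' processing notes STAR and HTSeq and the mouse builds mm9 and NCBIM37 were used. The aligner settings, read length and strand setting are not given in the sources used here. Each listed gene has at least 15 reads in at least 1 library. A second table deposited by the authors holds log2 RPKM values. They matched the log2 of the count plus 2 reads (scaled by library total) up to a constant per gene and library, within 0.014, so RPKM levels include about 6.25% for Thbs2. Levels were turned back to a linear scale.

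The test on counts was that of edgeR 4.0.16 under R 4.3.3 (expression filter, TMM, robust quasi-likelihood test, all 8 libraries, no covariate), with Benjamini-Hochberg adjustment over 15850 genes and a threshold of 0.05. The procedure was tested on simulated data. The SE is the log2 fold change divided by the root of its F statistic. The members and lists were chosen with earlier results of these data known. Named genes were the members, C3, up to 4 called genes per list with the smallest p (where fewer than 2 were called, the 2 smallest) and the 3 nearest profiles of each member. Marker levels are summed CPM. Rlbp1 and Kdr were each left out of a list after their values were seen. Cd36, Rpe65, Tek, Mtx1, Itga2b, Gp1bb, Pdgfra, Gfap, Aldh1l1 and Aqp4 were likewise named after their values were seen. Alternatives included DESeq2 1.42.0 and limma 3.58.1. Libraries of one label all differed by more than sampling noise (chi-square per degree of freedom at least 3.70). Coding sequences were taken as the longest open reading frame of each transcript.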

Additional observations from a re-analysis of the deposited data

Results flagged for a closer look

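Among 32 groups of 4 libraries examined (members, C3 and marker lists under each label), 1 held a library far from the others. The summed platelet and megakaryocyte markers stood at 20.1 CPM in the library labelled C3 KO replicate 4, against 17.7 to 17.9 CPM in the other libraries of that label. Chance alone flags about 1 in 20 such groups. The sum rests on Gp1bb, at a mean of 15.1 CPM over the 8 libraries, and Itga2b, at 1.47 CPM. Thbs1 in that library was 41.0 CPM, within the range of its label.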

How the results depend on the processing

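Over 19 alternatives the log2 fold change of Thbs1, which was chosen with its difference known, ran from 1.10 on log2(RPKM + 1) to 1.66 with Y-linked expression as a covariate. That of Thbs3 and Thbs4 was positive in all 19, that of Thbs2 in 18, and that of Cd47 in 9, between −0.04 and 0.03. Over all genes 2269 were called, 1451 and 1448 by limma on log2(RPKM + 1) and log2(RPKM + 0.1), 458 with the Y-linked covariate, and 1305 (without C3 KO replicate 4) to 2543 (without WT replicate 1) when 1 library was left out. On both RPKM scales the calls fell from 6 to 3 among receptors and partners, from 7 to 4 among matricellular genes and from 3 to 1 among TGF-beta genes. With the Y-linked covariate they were 1 among receptors, 1 among type 1 repeat proteins, 4 among matricellular genes and 1 among TGF-beta genes. Leaving out 1 library gave 3 to 5, 2 to 5, 4 to 7 and 1 to 3 calls in these lists. For the lists and the total, the cause of these changes was not tested. The labels do not say that replicate numbers pair the libraries. After the mean of each gene within a label was subtracted from its log2 CPM, same-numbered libraries correlated at −0.09, 0.11, 0.03 and −0.06. Of the 8 libraries, 2 correlated best with their own number, namely replicate 2 of either label, which cannot exclude a pairing. With the replicate block 2400 genes were called, 5 instead of 3 among type 1 repeat proteins, and the log2 fold change of Thbs1 was 1.37. Depth limits Thbs2 and Thbs4, whose lowest libraries held 19 and 23 reads.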
